A study of Mus musculus with 12 samples.

Results

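In the left ventricle of mice, 10 genes of the circadian clock and its direct output were followed: Arntl, Clock, Npas2, Per1, Per2, Per3, Cry1, Nr1d1, Nr1d2 and Dbp. They were taken by name from a table of 29564 genes, and all 10 were among its rows. On GRCm38, in the GENCODE M21 annotation, those named most below are Per3 (chr4:151003652-151044665, minus strand), Nr1d1 (chr11:98767932-98775333, minus strand), Nr1d2 (chr14:18204054-18239127, minus strand), Dbp (chr7:45705088-45710203, plus strand), Cry1 (chr10:85131700-85185064, minus strand) and Per2 (chr1:91415982-91459324, minus strand), all protein-coding. Polyadenylated RNA had been sequenced from 12 wild-type C57BL6 mice, which the study's methods describe as male C57BL/6J, with 4 mice in each of 3 groups. Control-Veh mice had non-failing hearts and received the vehicle of DMSO, PEG-300 and water. HFpEF-Veh mice modelled HFpEF, the form of heart failure in which ejection fraction is preserved, through a high-fat diet combined with L-NAME, which blocks nitric oxide synthase, and received the same vehicle. HFpEF-TYA-018 mice were that model too, dosed by mouth with 15 mg/kg TYA-018, a compound that inhibits HDAC6, a deacetylase that acts mainly in the cytoplasm. The series is titled as a single-dose study, and the paper's results describe hearts harvested hours after a single dose. The treatment text in the labels speaks instead of daily dosing for weeks, as do the methods for the efficacy test. The methods give standard chow for control mice and a cycle of equal light and dark phases. The sources used here do not give the age of these mice at harvest or the hour at which each heart was taken. Hearts of the Control-Veh group are called control hearts below and give libraries C1 to C4, those of HFpEF-Veh give V1 to V4, and those of HFpEF-TYA-018 are called treated hearts and give T1 to T4. The animal numbers of a group lie close together in the labels, so the group cannot be told apart from anything handled in that order.

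The clock is a loop of transcription factors that turns over about once a day in nearly every cell, heart muscle cells included. CLOCK or its relative NPAS2 pairs with BMAL1, the product of Arntl, and the pair binds E-boxes in the Per, Cry, Nr1d1, Nr1d2 and Dbp genes. PER and CRY proteins return to the nucleus and silence that pair, and the REV-ERB receptors made from Nr1d1 and Nr1d2 bind ROR elements and silence Arntl. DBP, with its relatives TEF and HLF, binds D-boxes and activates genes there, and NFIL3 (also called E4BP4) competes for the same D-boxes as a repressor. In the heart, genes of ion channels, lipid metabolism and glucose use are among the known outputs of the clock.

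The DNA elements named above could be read in windows that ran from 250 bases before to 50 bases after a start site, taken from RefSeq on GRCm38.p6. There were 13 windows for 9 of the members. Per2 was not matched. The motifs were searched on both strands as CACGTG (E-box), CACGTT (the E'-box variant), TAGGTCA or TGGGTCA (ROR element), TTATGTAA or TTACGTAA (D-box) and TGACGTCA (the cyclic AMP response element). The D-box letters were found in 1.06% of all 32851 windows, and Per3 was the member that held them. It held them in 2 places, 205 and 158 bases before its start. The 250 bases before the Per3 start are shown because Per3 had the largest called difference of the members between HFpEF-Veh and control hearts. The factors that bind D-boxes are described beside Dbp below. The stretch lies at chr4:151044666-151044915 on the minus strand, and the capitals mark the D-boxes.
Per3: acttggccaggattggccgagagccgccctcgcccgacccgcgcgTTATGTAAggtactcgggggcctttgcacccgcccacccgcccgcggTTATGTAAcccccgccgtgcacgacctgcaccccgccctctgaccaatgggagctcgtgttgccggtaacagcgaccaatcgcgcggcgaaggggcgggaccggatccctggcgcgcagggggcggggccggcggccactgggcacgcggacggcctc

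Other matches are shown as stretches of 30 bases with the match in capitals, because they are the elements through which the loop is known to run. The E-box letters were in 7.15% of all windows and in those of Cry1 (60 bases before the start, chr10:85185097-85185126, minus strand) and Per1 (166 bases before the start, chr11:69098771-69098800, plus strand). The E'-box letters were in 4.68% of all windows and in those of Cry1 (79 bases before the start, chr10:85185116-85185145, minus strand) and Nr1d1 (28 bases before the start, chr11:98775388-98775417, minus strand), in both on the opposite strand, so that they read AACGTG. The ROR element letters were in 6.45% of all windows and in one of the Arntl windows (from base 31 of the transcript, chr7:113207529-113207558, plus strand). The cyclic AMP response element was in 1.79% of all windows and in none of the 13. A match is a run of letters in a short window and says nothing on whether a factor was bound.
Cry1 E-box: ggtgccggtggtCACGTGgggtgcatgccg
Cry1 E'-box: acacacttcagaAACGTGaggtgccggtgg
Per1 E-box: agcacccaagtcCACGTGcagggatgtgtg
Nr1d1 E'-box: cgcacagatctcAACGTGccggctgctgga
Arntl ROR element: gaaggcagaaagTAGGTCAgggacggaggt

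Levels differed widely between members. In TPM, which counts transcripts as a share of all transcripts and so accounts for gene length, the control level was 13.2 ± 1.79 for Nr1d1 and 13.1 ± 2.39 for Dbp (SD, n = 4), and these did not differ beyond their spread. Nr1d2 followed at 5.57 ± 0.410 TPM, then Per1 at 3.87 ± 0.397, Per2 at 2.30 ± 0.301, Per3 at 1.75 ± 0.197, Cry1 at 0.677 ± 0.0988 and Npas2 at 0.0959 ± 0.0156. The libraries of neighbours in this order did not overlap, except between Nr1d1 and Dbp and between Per2 (lowest 1.929 TPM) and Per3 (highest 1.932 TPM). Each of Per1, Per2, Per3, Nr1d1, Nr1d2 and Dbp had at least 1475 estimated counts in every library. Cry1 had 370 to 724 counts and Npas2 53 to 111. Whole libraries held 61177646 to 83928922 estimated counts.

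Arntl and Clock, the positive arm of the loop, could not be followed in these tables. Clock was listed at 0 in 8 of 12 libraries, and held 277 estimated counts in C1, 211 in V3, 18.6 in T2 and 13.2 in C2. Arntl was listed at 0 in C4, held 5.54 counts in V2, and reached 180 in V3. Libraries of one group thus lay far apart for both genes. Such rows were not rare: of 12068 genes with 100 or more counts in at least 1 library, 330 (2.74%) were listed at 0 in another, among them Idh3a, an enzyme of the citric acid cycle in heart mitochondria, at 0 in 2 libraries and at 9671 counts in another. A 0 in these rows is therefore given as listed, with no mean or fold change for Arntl or Clock, which are also left out of the medians over members below, and why they were so listed was not tested. Both passed the filter on low counts and entered the counts of tested members, where their adjusted p was 0.463 and 0.933 between HFpEF-Veh and control hearts by edgeR's quasi-likelihood test.

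**Figure D1:**
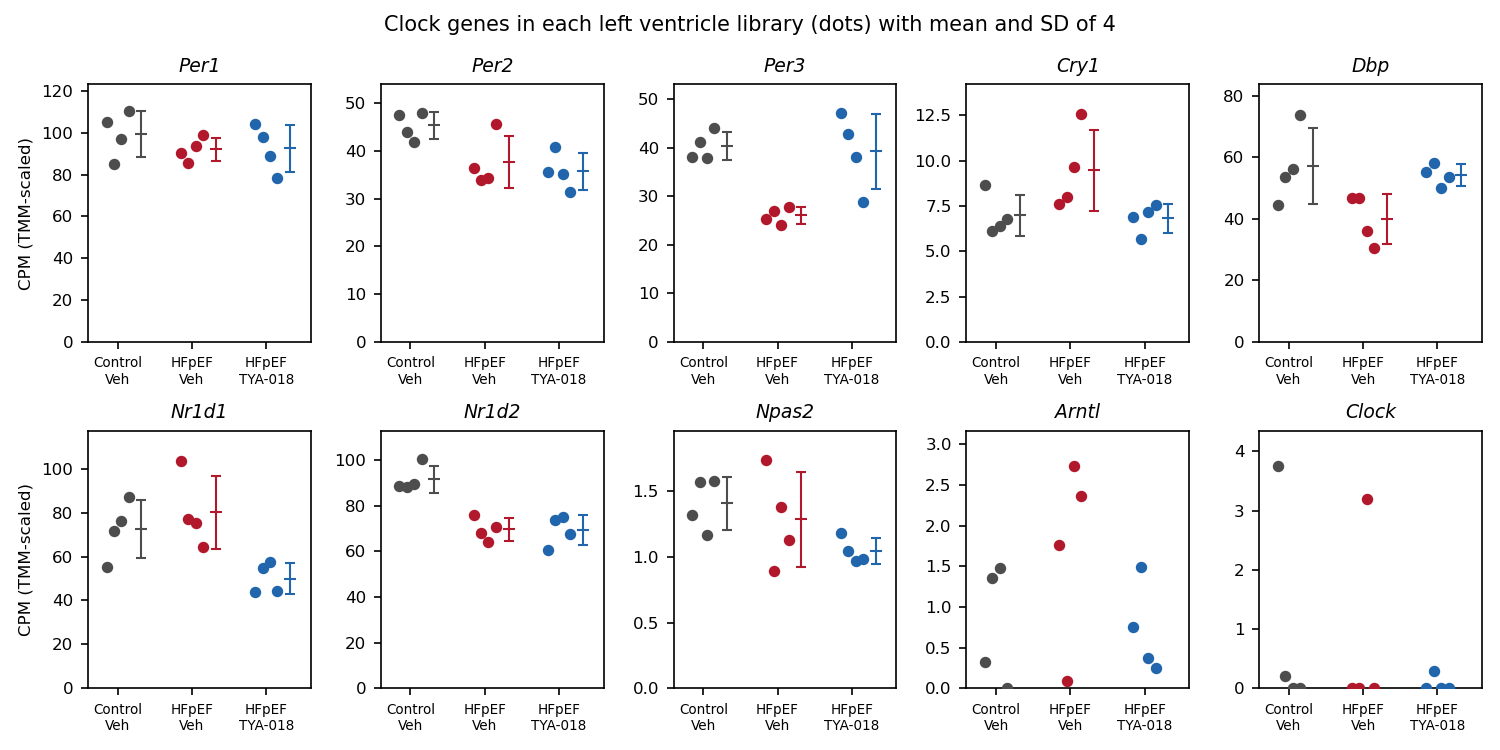
CPM (estimated counts scaled to library size, with TMM factors) of the 10 clock genes in each library of the 3 groups, with bars for the mean and SD of 4 libraries, left out for Arntl and Clock. The 4 HFpEF-Veh libraries of Per3 lie between 24.1 and 27.8, below every other library, and Clock sits at 0 in 8 of 12 libraries.

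The first question was how the hearts of the model differed from control hearts. In HFpEF-Veh, Per3, Nr1d2 and Dbp were lower than in control hearts, by 0.63, 0.40 and 0.51 on the log2 scale, while Per1, Per2, Cry1, Nr1d1 and Npas2 were not called. A gene was called where edgeR gave a p under 0.05 after Benjamini-Hochberg adjustment across 14333 tested genes. Of the 10 members tested, 3 were called lower, beside 10.3% of all tested genes. None was called higher, beside 10.9% of all tested genes. At an unadjusted p under 0.05 there was 1 higher member, Cry1, and DESeq2 also called that 1. The 4 libraries of each group did not overlap for 2 of the 10 members, beside 23.5% of all tested genes. The median log2 fold change was -0.20 over the 8 members that have one and -0.01 over all tested genes. Without C4 or V3 the number of all genes called lower fell from 1472 to 922 and 936. In tissue RNA, fewer cells of a type and less RNA per cell cannot be told apart.

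Per3 is a period gene that is thought to be less needed for the core rhythm than Per1 or Per2. It had the largest called difference of the members in this comparison. It stood at 38.2, 41.1, 37.9 and 44.2 CPM in C1 to C4 and at 25.4, 26.9, 24.1 and 27.8 CPM in V1 to V4. Every HFpEF-Veh library was thus below every control library. The log2 fold change of Per3 was -0.63 ± 0.12 (SE, adjusted p = 0.00452, edgeR). It was called whichever of the 12 libraries was left out (largest adjusted p 0.0167, edgeR), but not by limma on log2(TPM + 1), where it was -0.55 (adjusted p = 0.168), or on log2(TPM + 0.1). The deposited effective length of Per3, by which TPM is divided, averaged 8036 ± 533 bases in control hearts, 9469 ± 677 in HFpEF-Veh and 7264 ± 939 in treated hearts (SD, n = 4). Other members also had their longest mean in HFpEF-Veh, such as Nr1d2 (5730, 6506 and 5655 bases in that order) and Dbp (1509, 1609 and 1513). Npas2 did not (5121, 4967 and 4803). The part of these lengths in the TPM values was not tested.

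Nr1d2 encodes REV-ERB beta. It was at 88.5, 88.2, 89.4 and 100.5 CPM in C1 to C4 and at 75.8, 68.3, 63.9 and 70.5 CPM in V1 to V4, again with no overlap. Its log2 fold change was -0.40 ± 0.079 (SE, adjusted p = 0.00524, edgeR), and the call held in all 12 fits that left out a library and in all 10 other alternatives. Nr1d2 was also the least variable member, with a pooled SD within groups of 0.11 in log2 CPM, and 22.6% of tested genes varied less. Its estimated counts were fractional in all 12 libraries, and 9.51% of its 31-base words are also in AC170187.1, an annotated gene for which no row was found.

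Its relative Nr1d1, which encodes REV-ERB alpha, was not called. Nr1d1 was at 55.5, 71.5, 76.2 and 87.2 CPM in C1 to C4 and at 103.5, 77.2, 75.4 and 64.5 CPM in V1 to V4. The groups overlapped, and the log2 fold change was 0.14 ± 0.16 (SE, adjusted p = 0.566, edgeR). The difference between both genes within a library, as log2 CPM of Nr1d1 minus that of Nr1d2, was -0.67 to -0.20 in control hearts and -0.13 to 0.45 in HFpEF-Veh. It was -0.61 to -0.38 in treated hearts. The HFpEF-Veh libraries thus lay above all 8 others on this measure, which was chosen after the values were seen and was not tested.

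**Figure D2:**
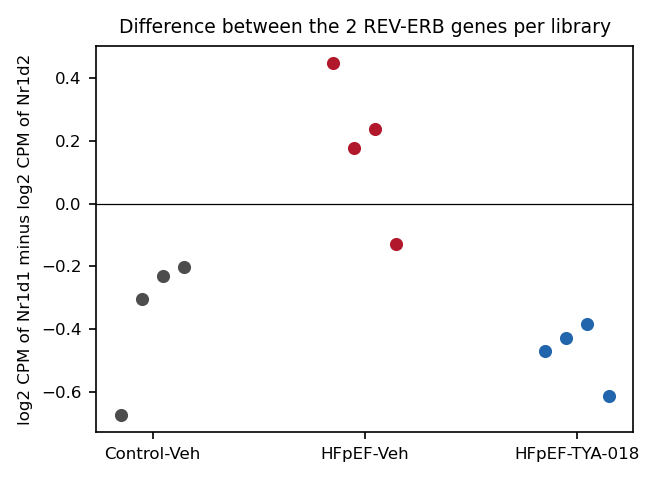
The log2 CPM of Nr1d1 minus that of Nr1d2 in each of the 12 libraries, by group, with a line at 0. The 4 HFpEF-Veh points lie from -0.13 to 0.45, above all points of control hearts (highest -0.20) and treated hearts (highest -0.38).

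Dbp, the D-box activator often used as a readout of clock output, was at 44.5, 53.7, 56.1 and 73.8 CPM in C1 to C4. In V1 to V4 it was at 46.6, 46.8, 36.0 and 30.6 CPM, so that V1 and V2 lay above C1 and the groups overlapped. The log2 fold change was -0.51 ± 0.16 (SE, adjusted p = 0.0371, edgeR). The call was lost when C2 (adjusted p = 0.0585), C3 (0.0692), C4 (0.108), V3 (0.0973) or V4 (0.0924) was left out, and also in the fit of these groups alone, with the deposited lengths as an offset and on all 3 TPM scales, which are log2(TPM + 1), log2(TPM + 0.1) and TPM rescaled to protein-coding nuclear genes. Dbp shares 16.9% of its 31-base words with Sphk2, a gene on the opposite strand, and its estimated counts were fractional in all 12 libraries. Sphk2 itself was at 3.01 CPM in HFpEF-Veh and 3.28 CPM in control hearts and was not called (adjusted p = 0.554, edgeR).

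The other repressors of the loop gave no call. Cry1, a cryptochrome, was at 8.65, 6.14, 6.42 and 6.77 CPM in C1 to C4 and at 7.63, 8.01, 9.63 and 12.6 CPM in V1 to V4, with a log2 fold change of 0.43 ± 0.16 (SE, adjusted p = 0.0753, edgeR). Leaving out C1 or V1 brought it under the threshold (adjusted p = 0.0264 and 0.0495, edgeR). Per2, the period gene that also responds to glucocorticoids and to feeding, was at 42.0 to 47.9 CPM in control hearts and at 34.0 to 36.5 CPM in V1, V2 and V3, while V4 was at 45.6 CPM. Its log2 fold change was -0.27 ± 0.10 (SE, adjusted p = 0.0759, edgeR), and without V4 it was -0.37 (adjusted p = 0.0156, edgeR). Per1 was at 99.4 ± 10.9 CPM in control hearts and 92.2 ± 5.61 CPM in HFpEF-Veh (SD, n = 4, adjusted p = 0.455, edgeR). Npas2, at 1.41 ± 0.200 and 1.28 ± 0.361 CPM, was not called either (adjusted p = 0.702, edgeR).

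**Figure D3:**
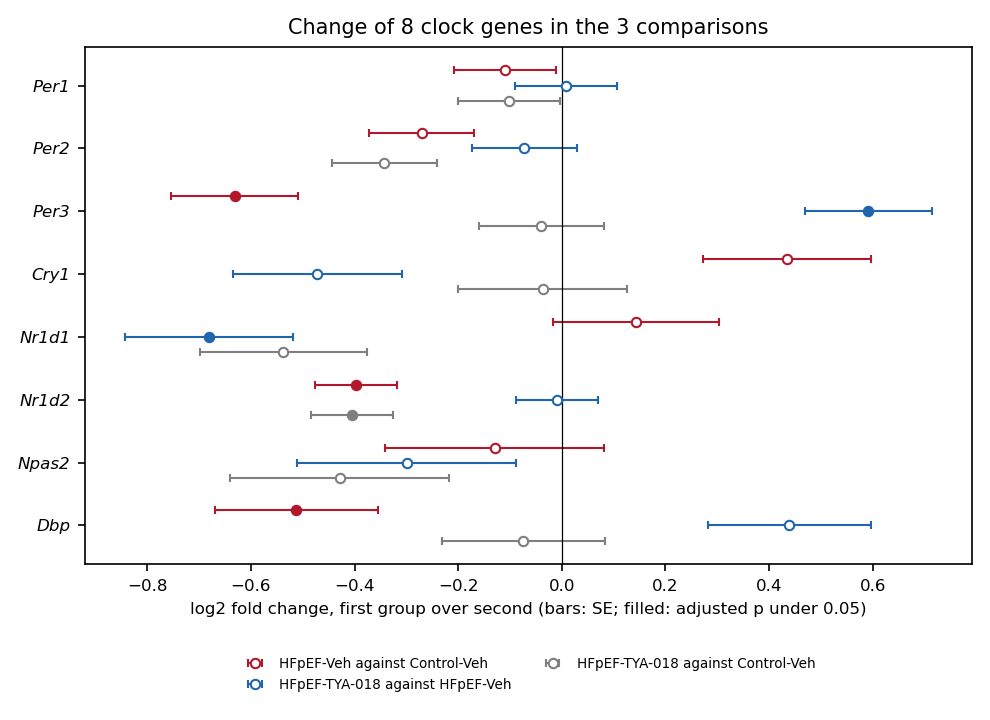
Log2 fold change with its SE for 8 clock genes in the 3 comparisons, where filled points have an adjusted p under 0.05 by edgeR. Per3 sits at -0.63 in the model against control and at 0.59 after TYA-018 against the model, while Nr1d2 sits at -0.40 against control without TYA-018 and at -0.41 with it.

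The second question was what TYA-018 changed within the model. After TYA-018, Per3 was higher than in HFpEF-Veh by 0.59 and Nr1d1 was lower by 0.68 on the log2 scale, and no other member was called. Called higher was thus 1 of 10 members, beside 8.93% of all tested genes, and called lower was 1 of 10, beside 10.4%, so both shares were near those of all genes. The split of all genes, 1280 called higher and 1487 lower, turned to 1607 and 1294 with upper-quartile factors, under which the members had the same counts. For 4 of 10 members the libraries of both groups were apart, Per3 and Dbp above and Nr1d1 and Cry1 below, beside 25.1% of all tested genes. The median log2 fold change was -0.04 over the 8 members that have one and 0.00 over all tested genes. Without T1 the numbers of all genes called higher and lower fell to 655 and 838, and without T2 to 735 and 904. The HFpEF-Veh libraries served in both comparisons, so the values of one are not independent of the other.

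Per3 was at 47.1, 42.8, 38.2 and 28.9 CPM in T1 to T4, all above the highest HFpEF-Veh library at 27.8 CPM. Its T4 value lay close to that library, and the TYA-018 libraries were spread more widely (SD 7.80 CPM) than those of HFpEF-Veh (SD 1.67 CPM). The log2 fold change was 0.59 ± 0.12 (SE, adjusted p = 0.00722, edgeR). The call held in all 12 fits that left out a library (largest adjusted p 0.0255, edgeR) and in all 10 other alternatives. Camta1, whose gene spans Per3 on the same strand without sharing an exon, stood at 56.9 CPM in HFpEF-Veh and 55.5 CPM in treated hearts and was not called (adjusted p = 0.812, edgeR).

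Nr1d1 was at 43.7, 54.8, 57.4 and 44.1 CPM in T1 to T4, below every HFpEF-Veh library. Its log2 fold change was -0.68 ± 0.16 (SE, adjusted p = 0.0138, edgeR), and it was called whichever of the 12 libraries was left out (largest adjusted p 0.0470, edgeR). On the TPM scale it averaged 13.01 ± 2.415 in HFpEF-Veh and 11.1 ± 2.27 in treated hearts (SD, n = 4), and limma on log2(TPM + 1) gave -0.22 (adjusted p = 0.363), where the median of all genes was 0.17. Nr1d1 lies tail to tail with Thra, the thyroid hormone receptor alpha gene, and 7.85% of its 31-base words are in Thra too, although its estimated counts were whole in all 12 libraries. Thra was at 41.6 CPM in HFpEF-Veh and 43.5 CPM in treated hearts and was not called (adjusted p = 0.520, edgeR).

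Nr1d2 was not called after TYA-018. It was at 60.6, 73.8, 74.9 and 67.5 CPM in T1 to T4, with a log2 fold change against HFpEF-Veh of -0.01 ± 0.079 (SE, adjusted p = 0.949, edgeR). The sign turned on other scales: it was 0.02 with upper-quartile factors, and 0.40 by limma on log2(TPM + 1) (adjusted p = 0.0411), which is 0.23 above the median of all genes on that scale. Dbp was at 55.1, 58.2, 49.8 and 53.6 CPM in T1 to T4, each above every HFpEF-Veh library, with a log2 fold change of 0.44 ± 0.16 (SE) that did not pass the threshold (adjusted p = 0.0702, edgeR). DESeq2, the fit of these groups alone and limma on log2(TPM + 1) and log2(TPM + 0.1) did call Dbp. Cry1 was at 6.88, 5.70, 7.14 and 7.56 CPM in T1 to T4, each below every HFpEF-Veh library, with a log2 fold change of -0.47 ± 0.16 (SE, adjusted p = 0.0613, edgeR). DESeq2 did call Cry1 lower, and so did 2 of the 12 fits that left out a library. Per1 (log2 fold change 0.01, adjusted p = 0.964), Per2 (-0.07, adjusted p = 0.657) and Npas2 (-0.30, adjusted p = 0.350) were not called by edgeR.

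The third comparison set the treated model against control hearts. Nr1d2 was the member that was called, lower by 0.41 ± 0.079 (SE, adjusted p = 0.0153, edgeR), with all 4 treated libraries below all 4 control libraries. This was 1 of 10 members, beside 2.74% of all tested genes called lower. None was called higher, beside 3.12% of all tested genes, and none was higher at an unadjusted p under 0.05 or by DESeq2. The libraries did not overlap for 2 of 10 members, Nr1d2 and Per2, beside 14.8% of all tested genes. The Nr1d2 call held in all 12 fits that left out a library (largest adjusted p 0.0478, edgeR) but not with the deposited lengths as an offset nor on any TPM scale. Nr1d1 (-0.54 ± 0.16, adjusted p = 0.0727) and Per2 (-0.34, adjusted p = 0.0693) were not called by edgeR, while DESeq2 called both. Per3 (-0.04, adjusted p = 0.890) and Dbp (-0.07, adjusted p = 0.832) were not called, with standard errors of 0.12 and 0.16.

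Side by side, the members followed different courses over the groups. Per3 averaged 40.3 ± 2.95 CPM in control hearts, 26.0 ± 1.67 in HFpEF-Veh and 39.2 ± 7.80 in treated hearts, and Dbp 57.1 ± 12.3, 39.99 ± 8.084 and 54.2 ± 3.49 CPM (SD, n = 4). Cry1 averaged 6.995 ± 1.135, 9.46 ± 2.25 and 6.82 ± 0.799 CPM. It passed the edgeR test in none of the comparisons, while DESeq2 called it in both comparisons with HFpEF-Veh. Nr1d2 was at 91.7 ± 5.89, 69.6 ± 4.94 and 69.2 ± 6.59 CPM, and Nr1d1 at 72.6 ± 13.2, 80.2 ± 16.5 and 50.0 ± 7.11 CPM. Over the 12 libraries, which share their scaling and their groups, Pearson's r of log2 CPM was -0.88 between Dbp and Cry1 and 0.70 between Dbp and Per3. With group means removed it was -0.77 and 0.21, and it was 0.73 between Dbp and Nr1d1, against -0.03 before.

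The partners of the loop were read from 3 lists with 31 genes that are not members: transcription partners, proteins that modify or degrade clock proteins, and clock outputs of the heart. Between HFpEF-Veh and control hearts, 3 of the 31 were called higher, beside 10.9% of all tested genes, and 6 lower, beside 10.3%, by edgeR, and their median log2 fold change was -0.11. After TYA-018, 6 were called higher than in HFpEF-Veh, beside 8.93% of all tested genes, and 3 lower, beside 10.4%, with a median of 0.06. Against control hearts, treated hearts had 1 called higher, beside 3.12%, and 2 lower, beside 2.74%, with a median of -0.03. The medians over all tested genes are those given above for the first comparisons, and -0.02 for the third. The 3 called higher in the model and the 3 called lower after TYA-018 were near the shares of all genes.

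The other D-box factors belong beside Dbp. Tef was at 129.1 to 147.1 CPM in control hearts and at 98.1 to 105.8 CPM in HFpEF-Veh, with a log2 fold change of -0.44 ± 0.069 (SE, adjusted p = 0.00159, edgeR) that was called whichever library was left out but on none of the 3 TPM scales. Hlf was at 23.5 CPM in control hearts and 18.4 CPM in HFpEF-Veh, lower by 0.36 ± 0.10 on the log2 scale (SE, adjusted p = 0.0274, edgeR), a call lost without C1, C3, C4, V1 or V3 (adjusted p 0.0504 to 0.0809, edgeR), in the fit of these groups alone and on all TPM scales. Nfil3, the D-box repressor, was at 6.44 to 7.63 CPM in control hearts and at 8.51 to 15.1 CPM in HFpEF-Veh, higher by 0.61 ± 0.16 (SE, adjusted p = 0.0178, edgeR), a call lost on log2(TPM + 1) and log2(TPM + 0.1). Dbp, Tef and Hlf, the 3 activators, were thus called lower in the model, beside 10.3% of all tested genes, and the repressor Nfil3 higher, beside 10.9%. None of these calls held on log2(TPM + 1) or log2(TPM + 0.1), and for Dbp and Hlf the libraries of both groups overlapped. The part of these factors in the Per3 values was not tested. After TYA-018, Tef was at 111.4 to 133.9 CPM, higher than in HFpEF-Veh by 0.26 ± 0.069 (SE, adjusted p = 0.0214, edgeR), and this call was lost without V1, T1 or T2 (adjusted p 0.0553 to 0.0656, edgeR), with the length offset, and on 2 of the 3 TPM scales. Hlf (0.10, adjusted p = 0.518) and Nfil3 (-0.33, adjusted p = 0.156) were not called after TYA-018 by edgeR.

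**Figure D4:**
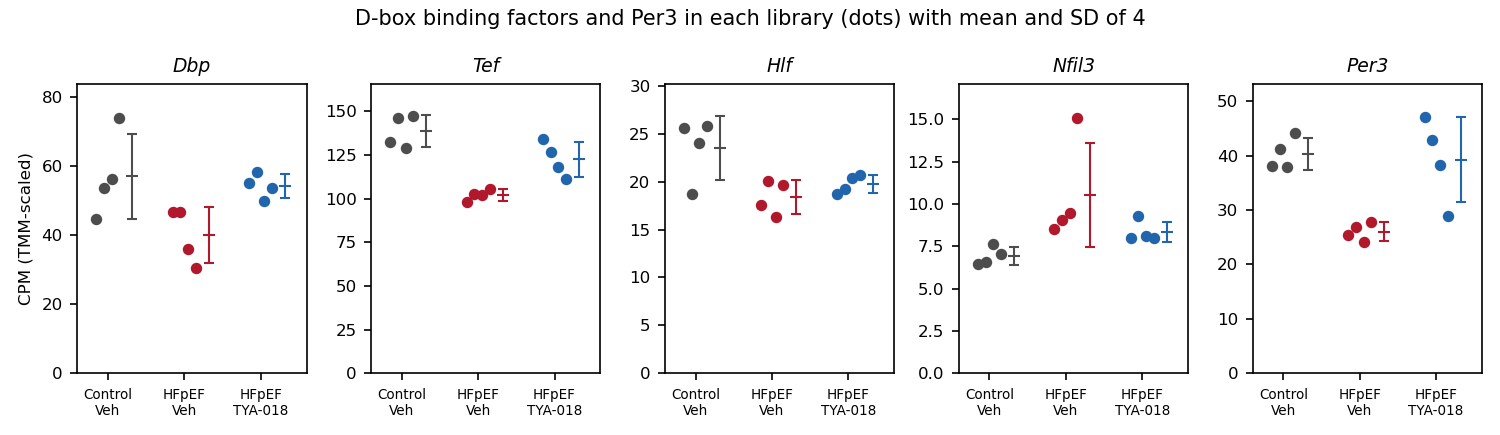
CPM of the D-box activators Dbp, Tef and Hlf, the D-box repressor Nfil3 and Per3 in each library, with the mean and SD of 4. Tef and Per3 are lower in every HFpEF-Veh library than in any control library, and Nfil3 is higher, with V4 highest at 15.1.

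Of the remaining 7 transcription partners, Bhlhe41 (DEC2), a repressor at E-boxes, was called higher after TYA-018 than in HFpEF-Veh, at 17.3 against 13.9 CPM (log2 fold change 0.31 ± 0.081 SE, adjusted p = 0.0199, edgeR). This call was lost without V4, T2 or T3 (adjusted p 0.0533 to 0.0591, edgeR), with the length offset and on all TPM scales. Cry2, the other cryptochrome, was at 26.9, 24.9 and 24.9 CPM in the 3 groups and was not called. Rora, whose receptor activates at the elements where REV-ERB represses, was not called in any comparison, nor were Rorb, Ciart (CHRONO) and Bhlhe40.

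Among 12 modifiers of clock proteins, Csnk1e, the casein kinase that marks PER proteins for decay, was called higher in HFpEF-Veh (0.25 ± 0.063 SE, adjusted p = 0.0165, edgeR), but not with the length offset or on any TPM scale. Fbxw11 was called higher in the model (0.28, adjusted p = 0.0460) and lower after TYA-018 (-0.29, adjusted p = 0.0449), and Nono was called lower after TYA-018 (-0.19, adjusted p = 0.0393), all near the threshold by edgeR. The Fbxw11 calls were each lost in 8 fits (without C2, C3, C4, V1, V3, V4, T2 or T3 for the first, and C2, C3, V1, V3, V4, T1, T2 or T3 for the second), and the Nono call in 7 (without C3, V1, V3, V4, T1, T2 or T3), with adjusted p up to 0.130. Of 10 other alternatives, 3 kept the first Fbxw11 call, 4 the second and 6 the Nono call.

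Among clock outputs of heart muscle, Kcnip2 had the largest differences of the 31 partners in both comparisons with HFpEF-Veh. Kcnip2, which encodes the KChIP2 subunit of a potassium channel that shapes repolarisation, was at 77.2 to 110.8 CPM in control hearts, 47.3 to 55.5 CPM in HFpEF-Veh and 73.4 to 87.1 CPM in treated hearts. It was lower in the model by 0.85 ± 0.10 (SE, adjusted p = 0.000521, edgeR) and higher after TYA-018 by 0.62 ± 0.10 (adjusted p = 0.00268), and both calls held whichever library was left out, while the first was lost on log2(TPM + 1) and log2(TPM + 0.1). Tcap, the titin cap of the sarcomere, Bdh1, a ketone body enzyme, and Nampt, an enzyme of NAD synthesis, were also lower in the model, by 0.53, 0.60 and 0.28 on the log2 scale (adjusted p 0.0101, 0.0141 and 0.0126, edgeR), as they were whichever library was left out. The Tcap call was lost with the length offset and on all TPM scales and the Bdh1 call on all TPM scales, while the Nampt call held in all 10 alternatives. Dgat2, which makes triglyceride, was at 139.5 to 174.5 CPM in HFpEF-Veh and 216.7 to 250.7 CPM after TYA-018, higher by 0.53 ± 0.078 (SE, adjusted p = 0.00156, edgeR), a call lost on rescaled TPM of protein-coding nuclear genes. Bdh1 (0.45, adjusted p = 0.0492) was called higher after TYA-018 close to the threshold, and this call was lost without one library in 10 of 12 fits (all but V3 and T4), with adjusted p up to 0.133 by edgeR. Against control hearts, Dgat2 was called higher (0.33, adjusted p = 0.0319) and Nampt lower (-0.25, adjusted p = 0.0496), lost in 7 fits (all 4 control libraries, T1, T2 or T4) and in 11 (all but T4), with adjusted p up to 0.127 by edgeR. Of the 10 other alternatives, 6 kept this Dgat2 call, 2 this Nampt call and 2 the Bdh1 call after TYA-018. The calls of Dgat2 and Nampt against control hearts and of Bdh1 after TYA-018 were lost with the length offset and on the TPM scales. Klf15, Kcnh2, Wee1 and Usp2 were not called in any comparison.

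**Figure D5:**
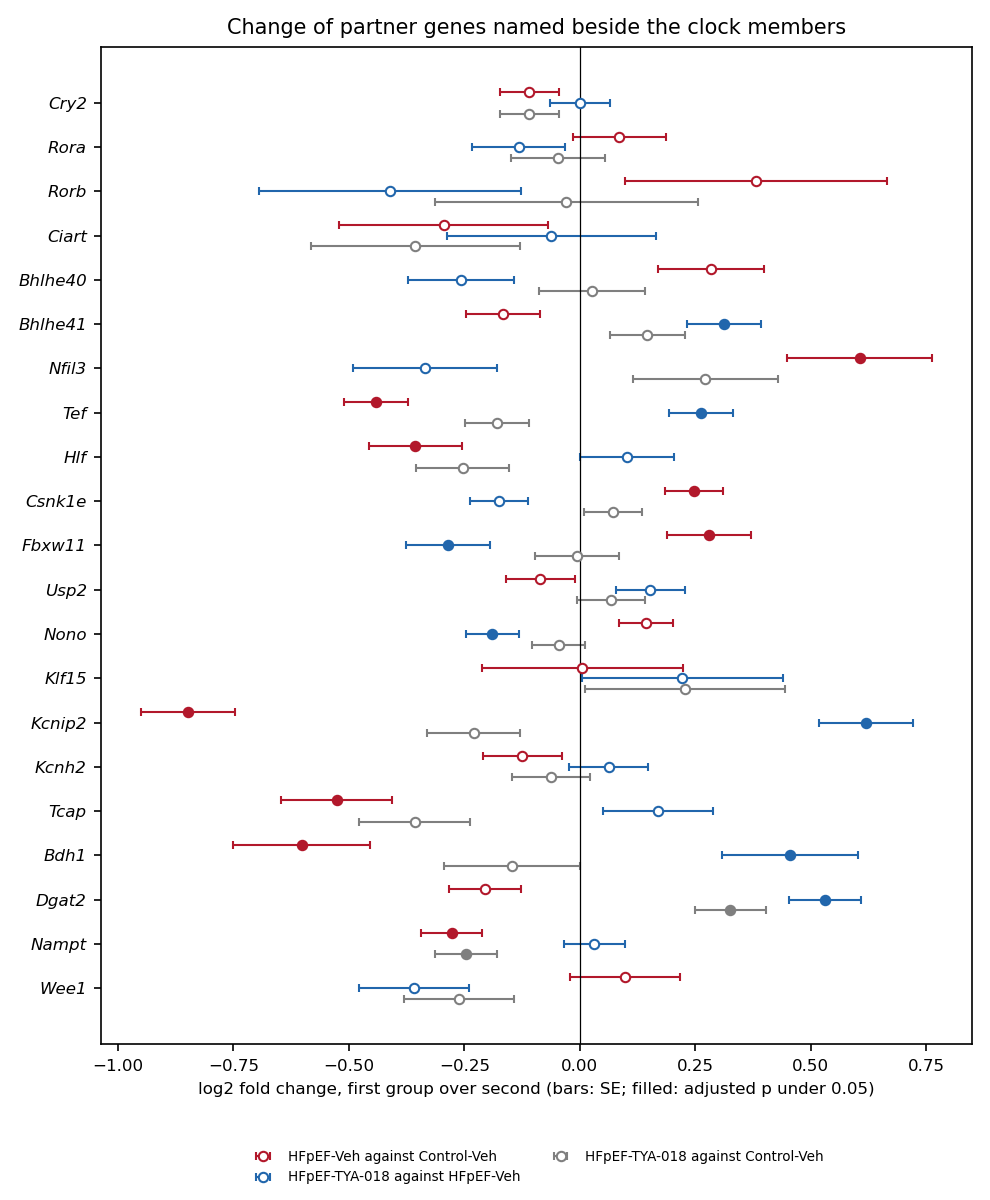
Log2 fold change with its SE for partner genes named in the text, which are not all 31, in the 3 comparisons, where filled points have an adjusted p under 0.05 by edgeR. Kcnip2 has the lowest value in the model against control, at -0.85, and the highest after TYA-018 against the model, at 0.62.

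Other inputs that clock genes are known to answer were read in the same libraries. Of 10 glucocorticoid response genes, 4 were called higher in HFpEF-Veh than in control hearts, beside 10.9% of all tested genes, and the same number lower after TYA-018 than in HFpEF-Veh, beside 10.4%, and these were Sgk1, Cdkn1a, Fkbp5 and Klf9 both times. Fkbp5 was at 68.5 CPM in control hearts, 124.4 in HFpEF-Veh and 68.2 in treated hearts, and Sgk1 at 73.5, 139.3 and 78.2 CPM. Per1, a member that is also on that list, was among those not called. The Klf9 call in the model was lost when C2, C3, C4, V1, V2, V3 or V4 was left out (adjusted p 0.0604 to 0.0971, edgeR). On log2(TPM + 1), limma called Cdkn1a in both comparisons and the other 3 in neither. In the model 8 of the 10 had a positive log2 fold change and 2 a negative one. Pdk4 was among the latter (-0.61, adjusted p = 0.0537, edgeR), with every HFpEF-Veh library below every control library. Against control hearts, treated hearts had 1 of the 10 called lower, Pdk4, and 0 higher. The median log2 fold change of the 10 was 0.27, -0.44 and 0.04 in the 3 comparisons. Of 6 temperature response genes tested (of 7 listed), 1 was called higher and 1 lower in the model, 1 lower after TYA-018, and 2 lower in treated against control hearts. Over all tested genes 10.9% were higher and 10.3% lower in the model, 8.93% and 10.4% after TYA-018, and 3.12% and 2.74% in treated against control hearts. Cirbp, a cold-inducible RNA-binding protein that follows the daily rhythm of body temperature, was at 31.1, 19.6 and 22.1 CPM in the 3 groups and was called lower in the model (-0.66 ± 0.11 SE, adjusted p = 0.00194, edgeR), though on no TPM scale. Rbm3, its relative, was at 49.1, 41.8 and 32.04 CPM and was called lower after TYA-018 (-0.38, adjusted p = 0.0140), but not with the length offset or on any TPM scale. In treated against control hearts, Rbm3 (-0.62, adjusted p = 0.00439) and Cirbp (-0.49, adjusted p = 0.0235) were called lower by edgeR. The Rbm3 call held in 12 of 12 fits without a library and in 8 of 10 alternatives. The Cirbp call held in 8 of 12 and 6 of 10. Of 8 fasting and fatty acid genes, 1 was called higher and 1 lower in the model, 2 higher and 1 lower after TYA-018, and 2 higher and 1 lower in treated against control hearts. None of the 9 immediate early genes was called in any comparison by edgeR or DESeq2, and at an unadjusted p under 0.05 there was 1, 0 and 1. The part of any of these in the values of the clock members was not tested.

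Markers of cell types moved with the groups as well. Over all tested genes 10.9% were called higher and 10.3% lower in the model, and 8.93% and 10.4% after TYA-018. Of 5 red cell markers, 5 were called higher in HFpEF-Veh than in control hearts and 5 lower after TYA-018, with a summed level of 1553 to 2309 CPM in control hearts, 4785 to 14139 in HFpEF-Veh and at most 3572 in treated hearts. Of 4 endothelial markers, 3 were called higher in the model and 3 lower after TYA-018, with sums of 537 to 669, 715 to 879 and 523 to 680 CPM. Fibroblast markers (2 of 4 higher, then 3 of 4 lower) summed to 344 to 502, 479 to 677 and 301 to 465 CPM. Macrophage markers (3 of 3 tested higher, then 1 lower) summed to 46.9 to 56.0, 66.4 to 86.5 and 50.1 to 58.4 CPM. Of 6 heart muscle markers, 4 were called lower in the model and 2 higher after TYA-018, with sums of 19936 to 28434, 16262 to 17740 and 18543 to 20970 CPM. Smooth muscle markers gave no call, 1 atrial marker was called lower in the model, and fat cell markers summed to at most 1.94 CPM in any library, while no marker of any list was at 0 in all libraries. In treated against control hearts, 1 fibroblast marker was called higher, beside 3.12% of all tested genes. There 1 heart muscle marker was called lower, beside 2.74%, and no other marker was called. The share of counts from mitochondrially encoded genes was 37.0 to 40.6% in control hearts, 43.1 to 47.7% in HFpEF-Veh and 35.4 to 41.2% in treated hearts, and the number of members called in each direction did not change without those genes. The part of the cell types in the clock values was not tested.

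The genes most like Dbp over the 12 libraries, by Pearson's r of log2 CPM among tested genes that are not members, were Prkab1 (r = 0.93), 2310009B15Rik (0.92), Nle1 (0.90), Mettl5 (0.90), P2rx6 (0.89), Tbc1d7 (0.89), Bcs1l (0.89) and Catsper2 (0.89). With group means removed their r was 0.77 to 0.86. Of the 31 partners, Kcnip2 (rank 532), Bhlhe41 (rank 571) and Tef (rank 852) came nearest to Dbp in that order, with r of 0.72, 0.71 and 0.68, and of 0.20, 0.54 and 0.18 with group means removed. Those most like Arntl were Parp6 (r = 0.86), Kcnj4 (0.83), Trmt44 (0.83), Sytl1 (0.81), Gbp4 (0.79), Adprm (0.79), D930048N14Rik (0.77) and Nfatc3 (0.76), for a gene whose own values run from listed 0 upward. Gbp4 was itself listed at 0 in C4 and V2, where Arntl was at 0 and at 5.54 estimated counts. The part of such listings in the likeness to Arntl was not tested. These are descriptions over libraries that share scaling and groups.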

How the data were processed

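The authors trimmed reads with fastp, quantified them with salmon, with its corrections for sequence, GC content and position, against mouse GENCODE transcripts of GRCm38, and summed transcripts to genes with tximport. The submitters' processing notes name Salmon 1.6.0 and a human build, which the mouse gene names contradict. The authors deposited estimated counts (not normalized), TPM, and a table of other values, the effective length of each gene. Labels and methods differ on read length and layout, and the strand setting of the counting is not given in the sources used here. Columns of values left out numbered 0.

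Groups came from the sample titles. Estimated counts were rounded and tested in R 4.3.3 with edgeR 4.0.16: filterByExpr by group (14333 genes, 99.98% of counts), TMM scaling, and 1 quasi-likelihood model over 12 libraries (9 residual degrees of freedom). Tests were two-sided, adjusted by Benjamini-Hochberg over all tested genes, and called under 0.05. The SE is the absolute log2 fold change divided by the square root of F. CPM are TMM-scaled, and log2 CPM used a prior count of 2. Alternatives were other scalings, no filter, an offset of lengths, fits of the groups compared, DESeq2 1.42.0, limma 3.58.1 on TPM, and leaving out each library. Fits were tested on simulated data. Each library is 1 mouse by its label, and p values measure the spread between mice, whatever its source. Libraries are numbered by animal number within a group. In that order Nr1d1 rose over control hearts and fell over HFpEF-Veh. Dbp in control hearts, Cry1 in HFpEF-Veh, and Per1 and Per3 in treated hearts also ran in a single direction. Per2, Nr1d2 and Npas2 did so in no group. The part of that order in the spread was not tested.

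Overlaps, 31-base words and positions came from GENCODE M21 on GRCm38. The methods name a later GENCODE release for salmon, and whether the shared words are the same there was not tested. Start windows came from RefSeq. All 10 members were named in every comparison. From each other list, up to 4 called genes per comparison were named by smallest p, and for Dbp and Arntl the 8 genes of highest r. Members and lists were chosen with earlier results of these data known. Results of some list genes are not reported here, though the counts of each list include them.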

Additional observations from a re-analysis of the deposited data

Results flagged for a closer look

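In groups of 4 libraries, 9 of 102 gene and group combinations held a library whose gap to its nearest neighbour passed Dixon's 95% critical value for its group, a flag that chance gives to about 1 in 20 groups.

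Among the members, Clock was at 3.76 CPM in library C1 (other controls 0 to 0.213), at 3.202 in V3 (others listed at 0) and at 0.286 in T2 (others listed at 0). Nr1d2 was at 100.5 CPM in C4, where the other controls were at 88.2 to 89.4, and both Nr1d2 calls held without that library.

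Among genes read beside them, Nfil3 was at 15.1 CPM in V4 (others 8.51 to 9.49) and at 9.27 CPM in T2 (others 8.01 to 8.11), and its call in the model held without V4. Bdh1 was at 62.1 CPM in V3 (others 42.0 to 43.9). Fkbp5 was at 106.3 CPM in V1 (others 128.3 to 131.9). Pdk4 was at 588.1 CPM in C1 (others 433.7 to 448.3).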

How the results depend on the processing

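No paired analysis was possible because the groups have no number of an animal or replicate in common. Of 240 results for single members under alternatives other than leaving out a library, 189 kept direction and side of the threshold, and so did 258 of 288 without 1 library. In no comparison was a member called lower in one setting and higher in another. The cause of the changes below was not tested.

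Counts of called members and partners that moved by more than 1.5 times are given here, beside the smaller moves of members. In HFpEF-Veh against Control-Veh, DESeq2 called 1 member higher (Cry1), and limma on log2(TPM + 1) or log2(TPM + 0.1) called 1 lower. Members called lower numbered 2 with the length offset, 2 in the fit of 2 groups, 2 on rescaled TPM and 4 by DESeq2 (which added Per2), against 3. Partners called higher numbered 0 and 0 on these TPM scales and 1 on rescaled TPM of protein-coding nuclear genes, and partners called lower 1, 1 and 2. In HFpEF-TYA-018 against HFpEF-Veh, members called higher numbered 2 in the fit of 2 groups, 3 on both TPM scales and 2 by DESeq2, and members called lower 0 on both TPM scales and 2 by DESeq2. Partners called higher numbered 2 with the length offset and 1 on rescaled TPM. Partners called lower numbered 0 with upper-quartile factors, 0 with no filter, 1 with the length offset, 0 on both TPM scales, 1 on rescaled TPM and 5 by DESeq2. In HFpEF-TYA-018 against Control-Veh, members called lower numbered 0 with the length offset and on all 3 TPM scales and 3 by DESeq2. Partners called higher numbered 0 with the length offset and on all TPM scales. Partners called lower numbered 1 with RLE factors, 1 without mitochondrially encoded genes, 1 with no filter, 0 with the length offset, 1 in the fit of 2 groups, 0 on all TPM scales and 3 by DESeq2. Leaving out 1 library gave 0 to 1 members higher and 2 to 3 lower in the first comparison (partners 2 to 3 and 5 to 7), 1 to 2 and 1 to 2 in the second (partners 2 to 6 and 0 to 4), and 0 higher and 1 to 2 lower in the third (partners 0 to 1 and 1 to 3).

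Log2 fold changes that turned sign ranged in size from near 0 to 0.56. In HFpEF-Veh against Control-Veh, Npas2 was 0.56 with the length offset and 0.032, 0.060 and 0.16 on the TPM scales (plus 1, plus 0.1, rescaled), Per1 was 0.0087 on rescaled TPM, and Nr1d1 was -0.027 and -0.030 on both TPM scales. In HFpEF-TYA-018 against HFpEF-Veh, Per2 was 0.28 and 0.39, Cry1 0.015 and 0.025, and Nr1d2 0.40 and 0.48 on both TPM scales (adjusted p = 0.0411 and 0.0466, limma), where all genes had medians of 0.17 and 0.34. Nr1d2 was 0.022 with upper-quartile factors, 0.047 with the length offset and 0.033 on rescaled TPM. In HFpEF-TYA-018 against Control-Veh, the 3 TPM scales gave Per1 0.21, 0.25 and 0.055, Per3 0.20, 0.25 and 0.064, Cry1 0.091, 0.18 and 0.0037, and the first 2 gave Dbp 0.10 and 0.11, while the length offset gave Per1 0.039 and Per3 0.072. Without 1 library, values ranged from -0.31 to 0.012 for Npas2 and -0.00097 to 0.24 for Nr1d1 in the first comparison, from -0.055 to 0.079 for Per1, -0.14 to 0.032 for Per2 and -0.049 to 0.050 for Nr1d2 in the second, and from -0.14 to 0.085 for Per3, -0.095 to 0.082 for Cry1 and -0.18 to 0.075 for Dbp in the third.

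Over all genes, calls higher and lower numbered 1561 and 1472, 1280 and 1487, and 447 and 393 in the 3 comparisons. They fell to 809 and 636, 565 and 652, and 108 and 95 with the length offset, to 692 and 450, 439 and 457, and 65 and 53 on rescaled TPM, and on log2(TPM + 1) they were 40 and 107, 2417 and 57, and 1 and 2. On log2(TPM + 0.1) they were 90 and 210, 2770 and 72, and 6 and 4. In the third comparison they were 290 and 224 in the fit of 2 groups, 323 and 265 with no filter, and 777 and 737 by DESeq2, and 158 and 159 without T2, 171 and 158 without C4, 219 and 197 without T1, 238 and 213 without T3, 286 and 248 without T4, 276 and 227 without C3, and 300 and 250 without C2. The second fell to 655 and 838 without T1 and 735 and 904 without T2, and calls lower in the first to 922 without C4 and 936 without V3. Npas2 had at most 111 estimated counts in a library.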
